A study of Danio rerio with 3 samples.

Results

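This account concerns 363 genes of zebrafish larvae that had fewer reads in a library expressing oncogenic HRAS than in the control, and about as many reads as the control in a library expressing active Notch. RNA of whole AB larvae, taken 3 days after fertilization, was sequenced in 3 libraries of messenger RNA, with 1 library for each group. Wild-type larvae served as the control. The larvae called HRAS carried Tg(fli1ep:GAL4FF)ubs3, a GAL4 driver under a promoter of fli1, a gene of the endothelial lineage, together with Tg(UAS:eGFP-HRASV12)io006, which encodes oncogenic HRASV12 fused to eGFP. The larvae called NICD carried the same driver together with tg(UAS:NICD)kca3, which encodes the intracellular domain of Notch, the fragment that acts in the nucleus once the receptor is cleaved. No driver is named for the control, so driver and transgene cannot be told apart in either comparison. How many larvae went into a library is not stated in the labels.

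The members were chosen by their measured values. For each gene the authors' corrected total reads (unique reads plus a share of the reads that matched elsewhere) were increased by 0.5 and divided by the library's sum, and the quotient of a transgenic library was divided by that of the control. A member needed 100 or more reads over the 3 libraries, an HRAS over control ratio of at most 0.5 and a NICD over control ratio between 0.67 and 1.5. Of 27882 gene identifiers, 19975 reached 100 reads. Among these 758 (3.79%) were at 0.5 or less in HRAS and 608 (3.04%) were at 0.5 or less in NICD. Of the 16075 genes within the NICD limits, 363 (2.26%) met the HRAS limit and are the members. Another 208 genes were at 0.5 or less in both libraries. Since these ratios chose the members, they are given as a description and were not tested. With 1 library per group no difference had a replicate check, both ratios share the control library, and bracketed ranges are exact conditional binomial (Clopper-Pearson) 95% intervals for counting error only.

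Neurons signal at synapses, where scaffold proteins hold vesicles at the active zone, calcium sensors trigger their fusion, and receptors on the receiving cell are held opposite by adhesion proteins. Cartilage owes its strength to fibrils of type II collagen, which carry type IX and type XI collagen and are linked by matrilins. In zebrafish larvae type II collagen is also made by the notochord, the axial rod around which the spine forms. The lens is built from crystallins and from fibre cells joined by gap junctions and water channels.

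All role groups were low in HRAS by the choice of members, and their NICD values lay on either side of the control. Of 82 members placed in nervous system groups 58 were above 1 in NICD, with a median of 1.14. Of 15 members of cartilage, notochord and extracellular matrix 9 were above 1, with a median of 1.16. Below 1 were 5 of 6 lens members, 7 of 8 members of eye and retina, all 3 members of the hair bundle and 9 of 12 digestive and metabolic enzymes. Among all 363 members 196 were at or above 1 in NICD and 167 below, so 9 of 15 matrix members is near the share of all members. Median transcript length also differed, at 2720 bases for the nervous system groups and 1716 for lens, and its part was not tested. The roles were assigned after the values were seen, so the counts by role are a description. In RNA of whole larvae, fewer cells of a type and less RNA per cell cannot be told apart.

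Corrected reads summed to 26384466 for control, 41105619 for HRAS and 21944303 for NICD. A floor of 3 reads equals 0.114, 0.073 and 0.137 RPM (reads scaled to a library of 1000000) in control, HRAS and NICD. The markers of other cell types differed between the libraries too. Of all 19975 measured genes 1066 were at least 2-fold higher in HRAS. Endothelial genes, of which 25 of 43 were at least 2-fold higher in HRAS, summed to 1009 RPM in control larvae, 2263 in HRAS and 1066 in NICD. Myeloid and leukocyte genes, of which 11 of 24 were at least 2-fold higher in HRAS, summed to 825, 1411 and 895 RPM. Erythroid genes summed to 2575, 3435 and 1927 RPM, and 5 of 23 were at least 2-fold higher in HRAS. The part of these shifts in the members' ratios was not tested.

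**Figure D1:**
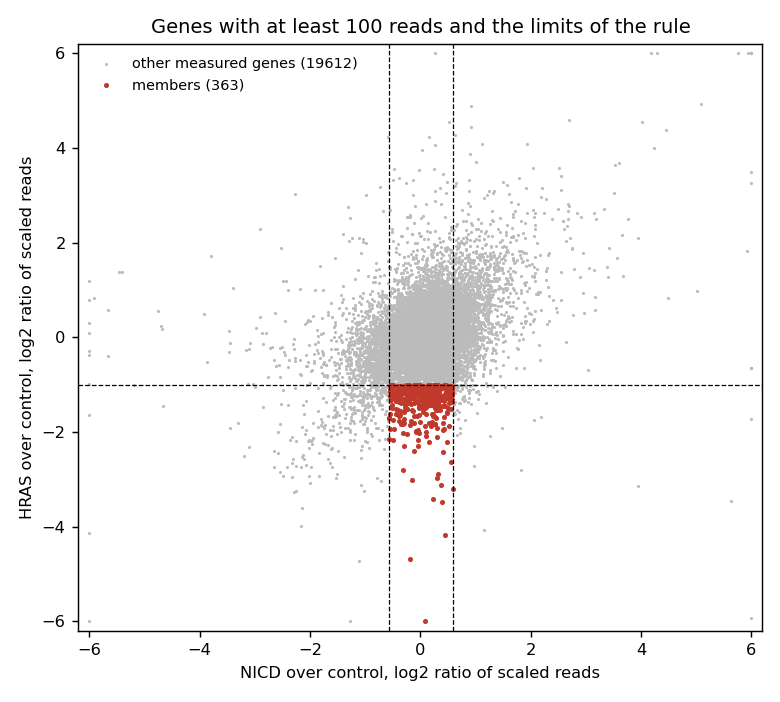
Each point is a gene with at least 100 reads, with NICD over control on the horizontal axis and HRAS over control on the vertical axis, both as log2 ratios of scaled reads, with more extreme values drawn at 6 from the centre. Red points are the 363 members and dashed lines the limits of 0.5, 0.67 and 1.5 that chose them.

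Together the members held 1.05% of all reads in control larvae, 0.43% in HRAS and 1.28% in NICD. A collagen gene named COL2A1 supplied 36.1% of their control reads, and the members without it held 0.671%, 0.282% and 0.722% of the 3 libraries. The median member had an RPKM (reads scaled to transcript length and sequencing depth) of 3.39 in control larvae, 1.34 in HRAS and 3.48 in NICD. The median of all measured genes was 6.04, 6.20 and 6.42 RPKM, so the members were on the whole less abundant than other measured genes. By summed reads, 116 members had fewer than 200, 159 had at least 200 but fewer than 1000, and 88 had 1000 or more. Without the control library 273 of the 363 would still have reached 100 reads, and 166 reached it in the HRAS library alone.

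Most members lay near the HRAS limit. Their median HRAS over control ratio was 0.418, and the middle part of the distribution ran from 0.357 to 0.463 (25th to 75th percentile). Only 26 members were at 0.25 or less, 116 lay between 0.25 and 0.4, and 221 lay above 0.4. The NICD over control ratios had a median of 1.04, equal to the 1.04 of all measured genes, with 196 members at or above 1 and 167 below. The counting interval of HRAS over control lay wholly under 0.67 in 330 members and wholly under 0.5 in 128. The counting interval of NICD over control lay wholly between 0.67 and 1.5 in 151 members and included 1 in 232, so in 212 members the interval reached past at least 1 NICD limit. The counting intervals of both ratios did not overlap in 306 members. The rule itself sets the ratios of a member apart, and the share over all measured genes was not counted.

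Values at the limits show how little separated a member from its neighbours. Just inside the HRAS limit were SYT2 and KCNC1, at 0.499 each, and just outside it atp1a3a, a neuronal sodium pump subunit, at 0.5003 [0.487 to 0.514] with a NICD ratio of 1.08. Just inside the upper NICD limit was the kinase gene MAST1, at 1.495, and just outside it ADGRL3, an adhesion receptor gene, at 1.51. Near the lower NICD limit pcare2 was inside at 0.672 and HOXB6 outside at 0.66997. At the limit of reads, GRID2IP was inside with 47, 16 and 38 reads.

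The cartilage and matrix members included the most abundant gene of all 363. COL2A1, the fibrillar collagen of cartilage and notochord, had 639 RPKM in control larvae, 249 in HRAS and 942 in NICD. HRAS was thus the low library and NICD the high one, with ratios of 0.389 [0.385 to 0.393] and 1.47 [1.46 to 1.49]. A second identifier with the name COL2A1 was no member, with an HRAS ratio of 0.565 and a NICD ratio of 1.17. Type IX collagen, which coats these fibrils, was represented by genes for each of its 3 chains, although a more abundant identifier for the first chain, COL9A1, was no member, with 137 RPKM in the control and an HRAS ratio of 0.639. COL9A2 had 161 RPKM in control larvae, 77.7 in HRAS and 227 in NICD. The gene col9a3 had 129, 62.8 and 150 RPKM, and col9a1b had 29.9, 8.54 and 39.9 RPKM. In each of these 3 member genes HRAS was lowest, as the rule required, and NICD was highest. The HRAS over control ratios were 0.483 [0.47 to 0.495] for COL9A2, 0.488 [0.474 to 0.502] for col9a3 and 0.286 [0.265 to 0.308] for col9a1b. Of the reads of COL2A1 in the control 3.41% were unique, and on unique reads its HRAS ratio was 0.456. On the 255, 229 and 316 unique reads of COL9A2 the ratio was 0.583, above the limit, whereas nearly all reads of col9a3 were unique. COL11A2, a chain of type XI collagen, was no member: its HRAS ratio of 0.381 met the limit, but its NICD ratio of 1.62 passed the upper one.

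MATN3, a matrilin that links collagen fibrils, had 30.4 RPKM in control larvae, 5.77 in HRAS and 27.9 in NICD. Its HRAS ratio was 0.19 [0.171 to 0.211], but none of its reads were unique in any library. A second identifier named MATN3 was no member, with 3.51, 3.61 and 5.55 RPKM, an HRAS ratio of 1.03 and a NICD ratio of 1.58. The gene cmn encodes calymmin, a zebrafish protein of the notochord, and had 9.08, 1.23 and 11.3 RPKM. Its HRAS ratio of 0.136 [0.116 to 0.158] was the lowest of the matrix members, and on 58, 15 and 55 unique reads the ratio was 0.172. An elastin gene, elnb, had 6.71, 1.68 and 6.32 RPKM, an HRAS ratio of 0.251 [0.224 to 0.281] on 1098 control and 429 HRAS corrected reads. On its 16, 13 and 23 unique reads the HRAS ratio was 0.531 and the NICD ratio 1.71, both outside the limits. All reads of CTHRC1, a secreted collagen-repeat protein gene, were unique, and it had 5.99, 1.21 and 5.81 RPKM with a ratio of 0.203 [0.14 to 0.285]. The gene p4ha1a, a subunit of the enzyme that hydroxylates prolines in collagen, stood at 0.451 [0.348 to 0.581].

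In the wider cartilage list, 5 of 33 measured genes were members (15.15%, against 1.82% of all measured genes). Of the 33, 27 were below 1 in HRAS and 1 was below 1 in NICD, with medians of 0.776 and 1.32, against 1.01 and 1.04 over all measured genes. Of all 19975 measured genes 9862 were below 1 in HRAS and 9028 in NICD. The list summed to 10773 RPM in control larvae, 5990 in HRAS and 14651 in NICD. Of 15 measured bone and tooth genes 0 met the rule and 0 were at 0.5 or less in HRAS, with a median of 0.822. At the 1.82% share of all measured genes a list of 15 can hold none, so this count is no result about bone. Of 38 basement membrane and fibroblast matrix genes 2 were members, elnb and TNR.

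**Figure D2:**
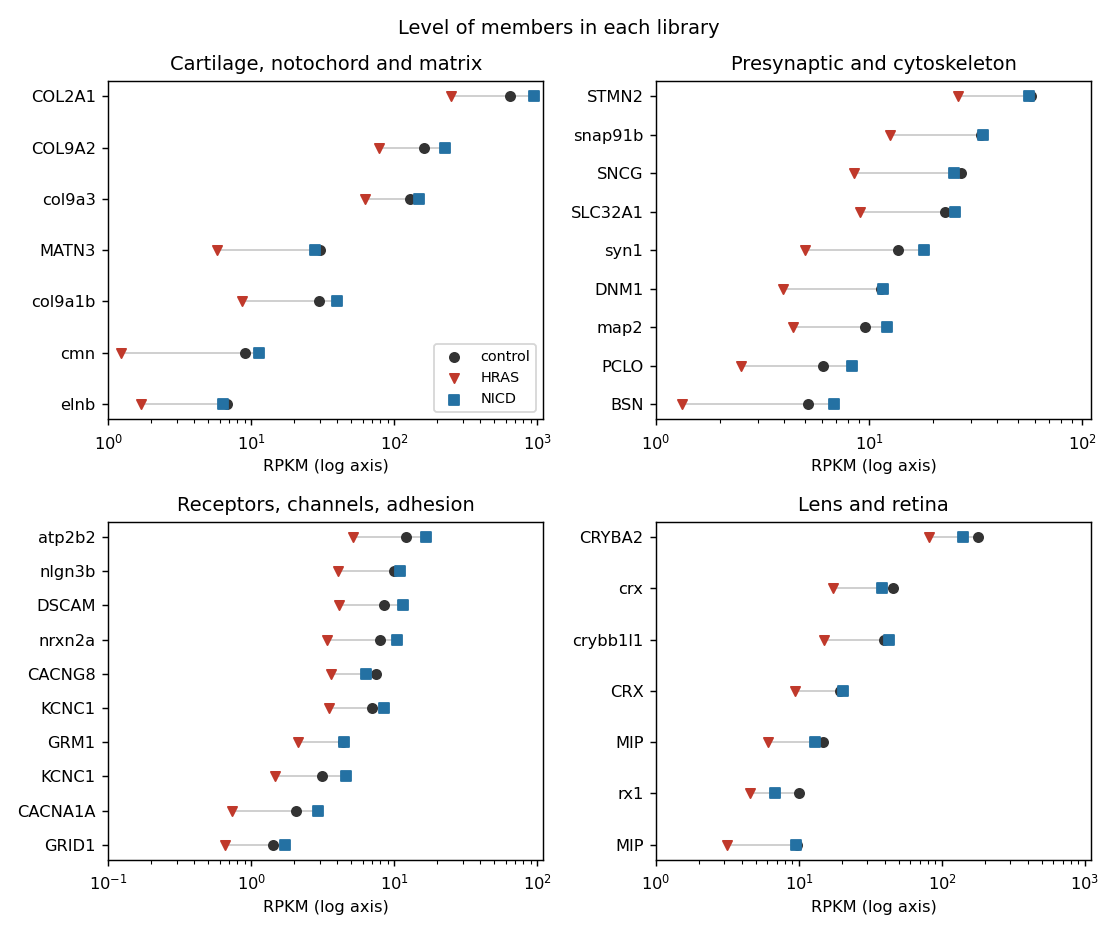
Deposited RPKM of selected members in each library on a log axis, 1 library per group without replicate error: circles are the control, triangles HRAS and squares NICD. A name drawn in more than 1 line stands for separate identifiers. In every line the HRAS library is lowest, as the rule that chose the members required.

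When the 232 named members were sorted by role, 82 fell into 5 nervous system groups, of which the presynaptic and postsynaptic groups held 19 and 25. The sorting went by gene name, and RNA of whole larvae does not show that neurons made these transcripts. The remaining named members included 85 in no role group, and the share of such roles among all measured genes was not counted. The 82 had HRAS ratios from 0.187 to 0.499 and a median NICD ratio of 1.14. Of these 82, 58 were above 1 in NICD and 24 below. Among the 19 presynaptic members, BSN and PCLO encode the giant scaffolds of the active zone. BSN had 5.15 RPKM in control larvae, 1.32 in HRAS and 6.84 in NICD, a ratio of 0.257 [0.231 to 0.285] with 54, 30 and 49 unique reads. PCLO had 6.09, 2.52 and 8.35 RPKM and a ratio of 0.413 [0.385 to 0.443]. RIMS1, which couples vesicles to calcium channels, was nearer the limit at 0.487 [0.439 to 0.539]. The control lay between HRAS and NICD in all 3.

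Genes of the vesicle cycle had similar values. The gene syn1, whose product synapsin tethers vesicles, had 13.7 RPKM in control larvae, 5.02 in HRAS and 18.2 in NICD, a ratio of 0.366 [0.339 to 0.396]. DNM1, the dynamin that pinches off endocytic vesicles, had 11.3, 3.95 and 11.6 RPKM, and snap91b, a clathrin adaptor gene, had 33.6, 12.5 and 34.1 RPKM. For these genes NICD and control were nearly level, with NICD ratios of 1.03 [0.955 to 1.11] and 1.01 [0.938 to 1.1]. SYNJ1, a lipid phosphatase that strips the clathrin coat, stood at 0.478 [0.449 to 0.51] in HRAS. SLC32A1, the transporter that loads GABA and glycine into vesicles, had 22.6, 9.05 and 25.2 RPKM, and nearly all of its reads were unique. Its HRAS ratio was 0.4 [0.373 to 0.429]. GAD1, an enzyme of GABA synthesis, was no member, with HRAS ratios of 0.615 and 1.33 for its 2 identifiers.

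Synaptotagmins, the calcium sensors of vesicle fusion, supplied 5 members among 20 measured SYT genes, against 363 of all 19975 measured genes. SYT3 had 5.79 RPKM in control larvae, 2.07 in HRAS and 7.29 in NICD, and SYT9 had 6.78, 3.33 and 7.73 RPKM. SYT7 rested on 57, 37 and 70 reads, and 2 identifiers named SYT2 stood at 0.486 and 0.499. Of the whole family 16 of 20 genes were below 1 in HRAS, against 9862 of all 19975 measured genes. The family median in HRAS was 0.679, and 1 further gene besides the 5 members was at 0.5 or less. Families were looked at only where a name stem had at least 3 members, so a high share follows in part from that choice. Other stems so chosen were SLC with 6 members of 343 measured genes, COL with 4 of 48, MAP with 3 of 46 and GRID with 3 of 5. The HRAS medians of SLC and MAP were 0.974 and 1.07, near that of all measured genes.

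On the receiving side of the synapse 25 members were receptors or their partners. GRID1, a delta-type glutamate receptor, had 109, 78 and 110 reads, all unique, and a ratio of 0.46 [0.339 to 0.62]. GRID2IP, a scaffold gene, stood at 0.223 [0.116 to 0.392] on 47, 16 and 38 reads, and at 1.08 on its 1, 2 and 2 unique reads. The NMDA receptor subunit gene grin2da had 1.23, 0.383 and 1.65 RPKM and a ratio of 0.313 [0.24 to 0.404].

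The CACNG genes encode auxiliary subunits, several of which escort AMPA-type glutamate receptors. CACNG3 had 6.23 RPKM in control larvae, 3.07 in HRAS and 9.09 in NICD, and CACNG8 had 7.4, 3.61 and 6.35 RPKM. HRAS was lowest for both, as the rule required. NICD was above the control for CACNG3, at 1.46 [1.23 to 1.72], and below it for CACNG8, at 0.859 [0.756 to 0.974]. Together with CACNG7, 3 of 10 measured CACNG genes were members, against 363 of all 19975 measured genes. The family median was 0.591 in HRAS and 1.28 in NICD. RASGRF2, an activator of RAS in neurons, stood at 0.475 [0.356 to 0.631].

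The group of neuronal channels, pumps and transporters, again sorted by name, held 14 members. CACNA1A, the pore of the presynaptic P/Q-type calcium channel, had 2.05 RPKM in control larvae, 0.731 in HRAS and 2.91 in NICD, a ratio of 0.356 [0.299 to 0.422]. The related cacna1aa, with an HRAS ratio of 0.379, was no member because its NICD ratio was 1.53. Both identifiers named KCNC1, a potassium channel of fast-firing neurons, were members, with 3.1, 1.46 and 4.61 RPKM for the less abundant and 7.01, 3.5 and 8.52 RPKM for the other. The calcium pump genes atp2b2 and atp2b3b had 12.1, 5.16 and 16.8 RPKM and 9.87, 4.05 and 13.4 RPKM. In 3 of the 14 members NICD was also below the control. The gene slc12a5a, which encodes the chloride exporter of mature neurons, had 2.13, 0.817 and 1.74 RPKM and a NICD ratio of 0.818 [0.644 to 1.03]. The NICD ratio of slc24a2 was lower, at 0.68 [0.616 to 0.749]. The list of ion channels held 41 measured genes, of which 3 were members, 30 were below 1 in HRAS and 5 below 1 in NICD. Over all 19975 measured genes 363 were members, 9862 were below 1 in HRAS and 9028 were below 1 in NICD.

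Adhesion, guidance and cytoskeletal members completed the neuronal groups. The adhesion gene nlgn3b, a neuroligin, had 10.0 RPKM in control larvae, 4.05 in HRAS and 11.04 in NICD. Its presynaptic partner gene nrxn2a, a neurexin, had 8.0, 3.39 and 10.4 RPKM, but only 30, 29 and 66 of its reads were unique, with an HRAS ratio of 0.628 on these. TENM2, a teneurin, stood at 0.372 [0.34 to 0.406] with all reads unique, and DSCAM, which keeps sister neurites apart, at 0.486 [0.447 to 0.527]. Among cytoskeletal genes STMN2, a microtubule regulator of growing axons, had 57.9, 26.2 and 56.3 RPKM. A second, more abundant identifier named STMN2 was no member, with 82.0, 64.8 and 76.1 RPKM and an HRAS ratio of 0.79. The gene map2, for a microtubule protein of dendrites, had 9.6, 4.4 and 12.1 RPKM. Among matrix genes of the brain cspg5a had 62.0, 28.4 and 85.7 RPKM.

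The list of neuron and synapse genes places these members. Of its 74 measured genes 4 were members (syn1, SLC32A1, nrxn2a and STMN2), which is 5.41%. A further pair at 0.5 or less in HRAS, 1 identifier each of the names INA and SLC17A7, were also at 0.5 or less in NICD. In HRAS 66 of the 74 were below 1, with a median of 0.683, and in NICD 27 were below 1, with a median of 1.07. All 19975 measured genes had 9862 below 1 in HRAS and 9028 below 1 in NICD. The list summed to 5973 RPM in control larvae, 4052 in HRAS and 6136 in NICD. Neural progenitor and neurogenesis genes had 0 members among 69 measured genes and a median of 0.852 in HRAS and 0.943 in NICD, with 56 below 1 in HRAS. A list of this size can hold no member at the 1.82% share of all measured genes. Of 16 glia and myelin genes 1 was a member, the water channel gene AQP4.

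**Figure D3:**
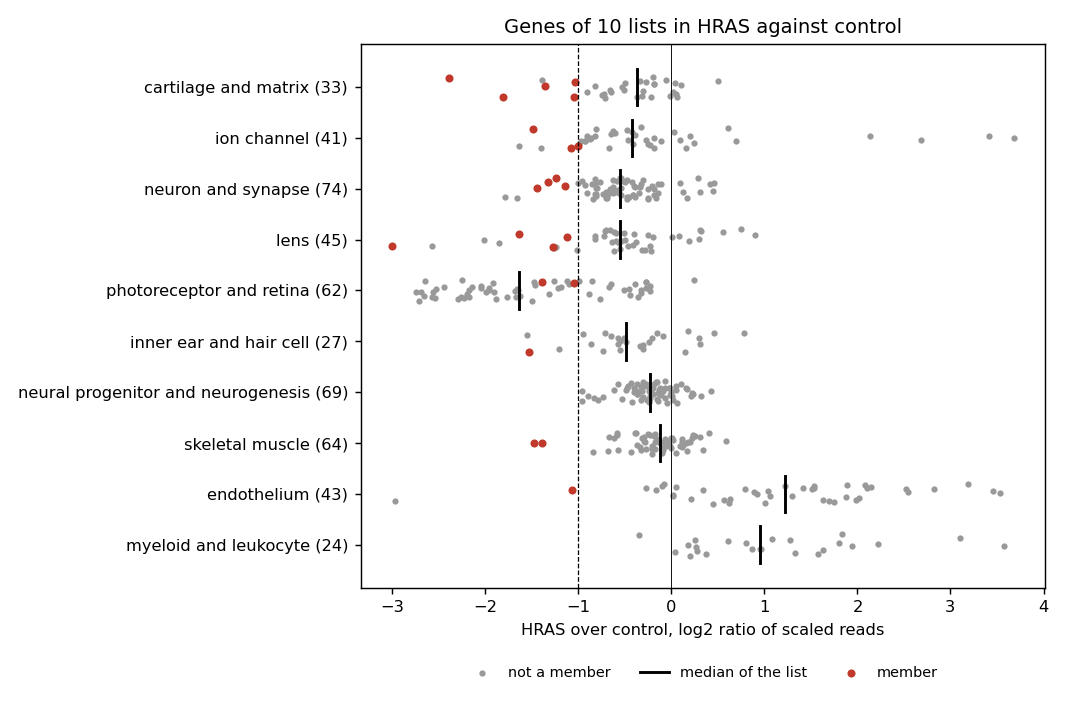
HRAS over control as log2 ratios of scaled reads for every measured gene of 10 lists, with the number measured in brackets. Red points are members, black bars list medians and the dashed line the limit of 0.5; neuron, cartilage and channel lists lie mostly below 0, endothelial and myeloid lists mostly above.

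Lens members were 6 in number. Both identifiers named MIP, the water channel of lens fibres, were members, with 9.73, 3.13 and 9.6 RPKM for the first and 14.6, 6.04 and 13.0 RPKM for the second. Almost all of their reads were unique, and the ratios were 0.322 [0.277 to 0.372] and 0.414 [0.376 to 0.455]. The crystallin gene CRYBA2 had 178, 81.3 and 139 RPKM, a ratio of 0.458 [0.438 to 0.478], whereas another identifier of that name was no member at 0.611. In the lens list 4 of 45 measured genes were members (8.89%, against 1.82% of all measured genes). Another 5 were at 0.5 or less in both libraries, among them the gamma crystallin genes crygm2d11, crygm2d5 and crygm2d17. The list was mixed: 36 of the 45 were below 1 in HRAS, with a median of 0.68, while 2 identifiers named LIM2 stood at 1.24 and 1.86.

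Retina genes often met the HRAS limit, and those that did rarely met the NICD limits. Of 62 measured photoreceptor and retina genes, 43 were at 0.5 or less in HRAS, 34 of them were so in NICD as well, and 2 were members. Of all 19975 measured genes 758 were at 0.5 or less in HRAS, 208 of them were so in NICD as well, and 363 were members. Both members encode CRX-type homeobox factors of photoreceptor precursors: crx had 45.2 RPKM in control larvae, 17.2 in HRAS and 37.9 in NICD, and the identifier named CRX had 19.4, 9.37 and 20.2 RPKM. All or nearly all of their reads were unique, and the HRAS ratios were 0.38 [0.357 to 0.404] and 0.484 [0.437 to 0.535]. Outside the list NYX, a protein of retinal bipolar cells, stood at 0.258 [0.178 to 0.364], and rx1, a homeobox gene of the retina, at 0.458 [0.409 to 0.512] with a NICD ratio of 0.682. In the hair bundle of the inner ear, PCDH15, part of the link between stereocilia, stood at 0.347 [0.297 to 0.405], with none of its reads unique.

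Enzyme and muscle members were fewer. The trypsin genes prss59.1 and prss59.2, which lie next to each other in the RefSeq annotation of assembly GRCz12tu, had 30.6, 10.9 and 21.4 RPKM and 94.6, 46.5 and 66.4 RPKM, and the elastase gene ela2 stood at 0.425 [0.318 to 0.564]. None of the reads of these 3 pancreatic genes were unique, and NICD ratios of 0.699, 0.702 and 0.712 put all of them near the lower limit. Other pancreatic enzyme genes went both ways in HRAS. Some were not lower, such as prss1 at 1.01 and CELA1 at 1.51. Others met the HRAS limit, such as both identifiers named CEL, at 0.354 and 0.386, and amy2a, at 0.459. These were no members, because their NICD ratios of 0.429, 0.591 and 0.177 were under the lower limit. Of 39 measured exocrine pancreas and gut genes 4 were members (10.3%, against 1.82% of all measured genes). In HRAS 24 of the 39 were below 1, with a median of 0.918. RBP2, an intestinal retinol-binding protein, had 96.9, 43.3 and 77.3 RPKM with only unique reads. CKB, a creatine kinase abundant in brain, was the second most abundant member with 423, 187 and 350 RPKM and a ratio of 0.442 [0.432 to 0.453]. FBP2, an enzyme of gluconeogenesis, stood at 0.455 [0.425 to 0.486], and defbl1, a beta-defensin gene, at 0.456 [0.428 to 0.486]. Of 64 measured skeletal muscle genes 2 were members (3.125%, against 1.82% of all measured genes). They were MYBPC1 at 0.36 [0.33 to 0.393] and MYBPC2 at 0.381 [0.319 to 0.455], both thick filament proteins, while the list had a median of 0.919.

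Genes of regulators were scattered over several families. Of 7 transcription factor genes outside the retina, dmbx2 and DMBX1, homeobox genes of the brain, stood at 0.343 and 0.456 in HRAS, and foxd1, a forkhead gene, at 0.438. Their NICD ratios of 0.814, 0.945 and 0.907 were all below 1. Of the 7, 5 were below 1 in NICD and 2 above, KLF5 at 1.07 and znf219 at 1.18. Of 10 kinase and signalling genes 8 were above 1 in NICD. RAP2A, a small GTPase of the RAS family, stood at 0.39 in HRAS and 1.07 in NICD. The kinase genes MAP3K13 and MAP3K9, which act upstream of JNK, stood at 0.453 and 0.484 in HRAS. On unique reads MAP3K9 stood at 0.618, above the limit, and MAP3K13 at 0.134 on 31, 6 and 10 reads. CYP2R1 and CYP27B1, the hydroxylases that activate vitamin D, were both members, at 0.261 and 0.396 in HRAS and 1.35 and 1.2 in NICD.

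Several of the lowest ratios belonged to genes of unclear role. A member without a name, ENSDARG00000094898, had 97 reads in control larvae, 0 in HRAS and 85 in NICD, which makes it at least 50.4-fold lower in HRAS against a floor of 3 reads in that library. Only 3, 0 and 4 of these reads were unique, so the bound rests almost wholly on reads that the authors shared out. Among named members with at least 200 control reads the lowest was zmp:0000000760, with 876, 127 and 854 reads, all unique, and a ratio of 0.0934 [0.0766 to 0.112]. The next, zgc:113232, had 690, 123 and 741 reads, but 1 unique read in the control and none elsewhere. The gene vimr1, related to vimentin, stood at 0.216 [0.173 to 0.267] and had only unique reads. In all, 131 members had no name, and their median HRAS ratio was 0.403, against 0.428 for the named. A chemokine receptor gene named CXCR4 was the only endothelial and the only lymphoid list gene among the members, at 0.477 [0.389 to 0.583]. The erythroid, myeloid, Notch pathway, cell cycle, Hox and heart lists, of 17 to 46 measured genes each, held no member. At the 1.82% share of all measured genes, lists of these sizes can hold none, so this is no result about those genes.

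Unique reads are among the corrected reads that chose the members, so values on them are no independent check. Of the 363, 259 had at least 100 unique reads, and of these 236 were at 0.5 or less in HRAS and 228 passed the whole rule on unique reads alone. The median HRAS ratio of the 259 was 0.424 on unique and 0.42 on corrected reads, and the highest on unique reads was 0.75. In 154 of the 259 every read was unique, so both ratios hold the same reads. Of the 83 with under 90% unique reads, a bound set after the values were seen, 68 were at 0.5 or less on unique reads, with a median of 0.432. Of the other 104 members, 8 had no unique read at all. In 52 members under 10% of the control reads were unique, so their ratios rest on how the authors shared out reads between transcripts or gene copies, and genes such as MATN3, prss59.1 and zgc:113232 remain uncertain. MATN3, prss59.1 and zgc:113232 are listed with 6, 2 and 3 transcripts. Whether their reads were shared between transcripts of 1 gene or between gene copies was not tested.

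Names in capitals can stand for several zebrafish genes, and other identifiers of a member's name often had higher ratios. Any identifier of the name that met the rule is itself a member, so higher ratios among the rest follow in part from that choice. There were 48 measured identifiers outside the members that carried a member's name. Of these 48 identifiers 2 were at 0.5 or less in HRAS, 37 were below 1 and 11 at or above 1, with a median of 0.698 and a range from 0.471 to 1.89. Of all 19975 measured genes 758 were at 0.5 or less and 9862 below 1, with a median of 1.01. The 48 were thus on the whole lower in HRAS than all measured genes, though less so than the members. Near the limit lay those named TENM2, at 0.521, RBP2, at 0.53, and DNM1, at 0.538. Those named DSCAM, GRID1, CACNG8, SYT9 and CTHRC1 stood at 0.58, 0.58, 0.668, 0.673 and 0.716. Those named DMBX1 and RASGRF2 stood at 0.861 and 0.894, and those named CKB and CXCR4 were above the control, at 1.51 and 1.89.

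**Figure D4:**
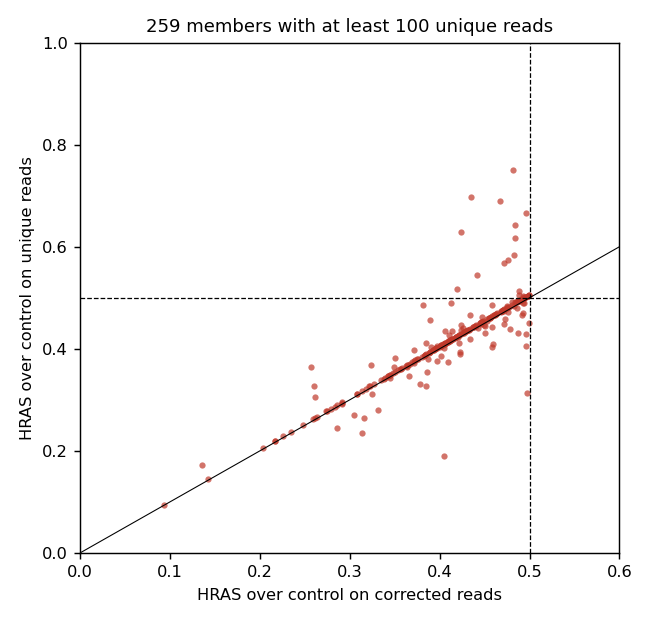
HRAS over control on corrected reads (horizontal) and on unique reads (vertical) for the 259 members with at least 100 unique reads, with the line of equality and the limit of 0.5 dashed. On unique reads 236 points lie at or under 0.5.

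Transcript length moved with the NICD ratio. Over all measured genes the median NICD over control ratio was 0.97 in the shortest decile of transcripts (106 to 864 bases) and 1.17 in the longest decile (4955 bases or more), while the HRAS over control median was 0.999 and 0.958. Members followed this in NICD, with medians of 0.932 in the shortest and 1.22 in the longest decile, and were level in HRAS, at 0.409 and 0.422. Their median longest transcript was 1822 bases, against 2051 bases over all measured genes, while that of the 82 nervous system members was 2720 bases. The part of length in the NICD ratios above 1 of long synaptic genes such as PCLO was not tested. When each ratio was divided by the median of its length decile, 377 genes met the rule, of which 349 were members before. Members also made up 3.86% of genes in the second lowest decile of control RPKM and 0.851% in the highest.

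**Figure D5:**
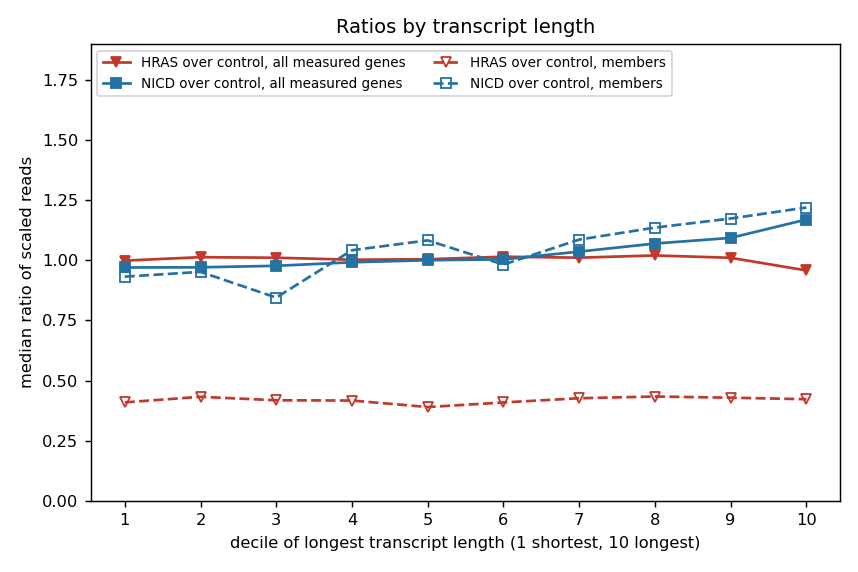
Median ratios of scaled reads by decile of longest transcript length, for all measured genes (filled) and for the members (open), HRAS over control as triangles and NICD over control as squares. The NICD median of all genes runs from 0.97 to 1.17. The HRAS median of the members stays between 0.39 and 0.434, held under 0.5 by the rule that chose them.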

How the data were processed

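Whole larvae were lysed in Trizol and their RNA was made into TruSeq libraries, per the labels' protocols. Reads came from an Illumina HiSeq 2000. Per the labels and the submitters' processing notes, CASAVA 1.8 and CLC bio Assembly Cell 3.2 were used, with transcripts of Ensembl release 63 and assembly Zv9. The sources used here give neither mapping settings nor strand, so overlapping and antisense genes cannot be told apart. The authors deposited per gene the counts of uniquely and of multiply matching reads. They also deposited corrected total reads, an expected count that was whole in the files, and RPKM values. RPKM recomputed from corrected reads and longest transcript length lay within 1% of the deposited RPKM in 99.1% of 58140 values above 1. A table of Ensembl identifiers named 19635 of them (70.4%). Names in capitals do not tell zebrafish paralogs apart, and list symbols were matched to them without the paralog letter.

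Ratios and intervals were computed with Python 3.11.15 and scipy 1.17.1, and alternative scaling factors with edgeR 4.0.16 and DESeq2 1.42.0. The code of the rule was run on simulated counts with counting error only, in which the lowered genes were set well below the HRAS limit. That run says nothing about variation between larvae or about members near the limit. The members and the 30 gene lists were chosen with earlier results of these data known, and the role groups and some examples after the values were seen. The other named genes were the 15 lowest HRAS ratios among named members with at least 200 control reads, the 10 highest control RPKM, up to 8 members of each list with at least 2 members and of each family stem with at least 3, and 3 genes on either side of each limit. With 1 library per group no test across genes was run. Intervals and floors cover counting error only, since reads lacking molecular identifiers can be copies of 1 molecule. Some members are not reported by name here.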

Additional observations from a re-analysis of the deposited data

How the results depend on the processing

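The number of genes lower in HRAS and within the NICD limits was 363. It lay between 292 and 382 on unique reads, with TMM factors, with DESeq2 size factors, with column sums without the 20 most abundant genes, with 5 added reads, after thinning to the smallest library and with the length correction, which was chosen after seeing the data. Of the 363, 228 were kept on unique reads, 353 with DESeq2 size factors and 280 after thinning. By construction the number was 798 with no minimum of reads, 147 with at least 500 reads, 142 with an HRAS limit of 0.4 and 217 with NICD limits of 0.8 and its reciprocal. The number of all genes at 0.5 or less in HRAS, 758, was 2314 with no minimum and 317 with at least 500 reads. On unique reads, cartilage members numbered 3 and pancreas and gut members 1. Ion channel members numbered 5 with DESeq2 size factors and 5 with the length correction, against 3. Of 79 genes named by rule, 74 had any unique read. On unique reads GRID2IP turned from an HRAS ratio of 0.223 to 1.08, the HRAS ratio of 21 others moved beyond its counting interval, and the NICD ratio of 24 did. With the length correction 18 of the 79 moved in NICD and 2 in HRAS. The cause of these changes was not tested. No paired analysis was possible because each group holds 1 library, and for the same reason no replicate could be left out. Depth limits the 116 members with fewer than 200 reads most.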
